A study of Mus musculus with 25 samples.

Results

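RNA was compared between 7 libraries taken 15 days after white matter stroke in mice (Day 15) and 10 Control libraries, out of 25 libraries in the series, of which the other 8 were taken at Day 5 after stroke. Libraries were assigned by the day or the control label in their names. All were labelled as oligodendrocyte precursor cells (OPC) cut from brain sections by laser capture, in which chosen areas of a section are excised under a microscope, and their cDNA was amplified before sequencing. A white matter stroke cuts the blood supply of the brain's myelinated fibre tracts. Both groups share the species, the capture and the amplification. How areas were chosen, whether control animals had sham surgery, and the strain, age and sex of the mice were not stated in the labels. The labels do not tie libraries to animals, so some may share one, in which case the p-values are too small, and the spread they measure may be technical.

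Oligodendrocytes wrap axons in myelin, a stack of membrane held together by a small set of abundant proteins and rich in cholesterol and galactolipids. They arise from OPC, which divide, carry the receptor Pdgfra and the proteoglycan Cspg4, and switch on myelin genes as they mature. Microglia, the resident phagocytes of the brain, and macrophages that enter from blood take up myelin debris after injury, digest it in lysosomes and export or store its lipids.

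Values were RPKM, reads scaled to gene length and library, and read depth is not known. Of 23351 genes, 4319 reached an RPKM of 1 in at least 7 libraries and were tested with limma as log2(RPKM + 1), on which changes of genes near 0 come out too small. Every test was repeated after upper-quartile scaling, which sets the 75th percentile of the tested genes equal in all libraries. The number of genes with at least 1 RPKM was 2980 ± 1248 at Day 15 (SD, n = 7) and 2467 ± 890 in Control (SD, n = 10), which did not differ detectably (exact two-sided permutation test, p = 0.341, adjusted over 4 library properties 0.4545). The RPKM sum without Rn45s, the ribosomal RNA precursor, was 31850 ± 16610 at Day 15 and 19750 ± 9607 in Control (exact permutation p = 0.0782, adjusted p = 0.313). Within replicate numbers 1 to 6 this sum was 35370 to 51080 at Day 15, above every Control library (7210 to 33980). Within numbers 7 to 10 the groups overlapped, at 11720 to 16830 at Day 15 and 10370 to 18510 in Control. Single transcripts stood out in some libraries: Ctsb at 5408 RPKM in Day 15 replicate 5, Grlf1 at 3581 RPKM in Day 15 replicate 2, Nbas at 10190 RPKM in Control replicate 4, and Rn45s at 73.4% of the RPKM sum of Control replicate 5. The defining OPC markers were low in both groups beside a myelin gene. Mbp, the basic protein of compact myelin, averaged 120.9 RPKM at Day 15 and 259.8 RPKM in Control, and 67.8 RPKM at Day 15 without replicate 2. Pdgfra had a median of 0.643 RPKM at Day 15 and 0.607 RPKM in Control, Cspg4 one of 0.283 RPKM at Day 15 and 0.00536 RPKM in Control, and the lineage factor Olig2 one of 0.151 RPKM at Day 15 and 0.631 RPKM in Control.

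The immune and transport genes Kcnj2, Ly86, C3 and Ucp2, rose at Day 15 in the values as deposited, and after upper-quartile scaling C3, Ly86, Ucp2 and Sirpa rose while Camk2n1 and Gpr37 fell. These were 4 of 4319 genes as deposited (0.0926%) and 6 of 4319 after scaling (0.139%) at a limma adjusted p under 0.05. Without the adjustment, 326 genes had p under 0.05 in the higher direction (7.55%) and 57 in the lower (1.32%) as deposited, against 264 higher (6.11%) and 208 lower (4.82%) after scaling. The share of genes with a log2 change below 0 was 37.9% as deposited and 51.5% after scaling, and the median change of all genes was 0.17 and -0.02 in that order. The scaling therefore moved the balance between higher and lower genes, and a gene's change given once is that of the values as deposited. An exact rank-sum test called 0 genes, with 302 higher and 81 lower at an unadjusted p under 0.05 and a smallest adjusted p of 0.111.

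C3 is the central component of complement, whose fragments tag debris for uptake. It measured 0.901 to 84.4 RPKM at Day 15, with a median of 4.23, against 0 to 1.44 RPKM in Control, with a median of 0.165. In all, 5 of the 7 Day 15 libraries lay above every Control library. Its log2 change was 2.37 (SE 0.53, limma adjusted p = 0.0487) as deposited and 2.23 (SE 0.50, limma adjusted p = 0.0474) after scaling. Day 15 replicate 2 held the highest value, and the Day 15 mean without it was 4.09 RPKM. Ly86, the secreted partner of the Toll-like receptor homologue Cd180, measured 2.48 to 166 RPKM at Day 15, with a median of 19.7, against 0.0577 to 3.60 RPKM in Control, with a median of 0.615. Again 5 Day 15 libraries lay above every Control library, and replicate 7 was the highest. The log2 change was 3.50 (SE 0.76) as deposited and 3.33 (SE 0.75) after scaling, with limma adjusted p = 0.0487 and 0.0474. Ucp2, a carrier of the inner mitochondrial membrane that is abundant in myeloid cells, measured 1.67 to 266 RPKM at Day 15, with a median of 9.66, against 0.0384 to 16.0 RPKM in Control, with a median of 0.568. Only 3 Day 15 libraries exceeded the highest Control library, replicate 5, which stood apart from the other Control libraries. Its log2 change was 3.23 (SE 0.72) as deposited and 3.00 (SE 0.63) after scaling, at the same adjusted p-values as Ly86.

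Kcnj2 encodes the inward-rectifier potassium channel Kir2.1, which holds the resting potential of microglia and other cells. It measured 2.38 to 74.3 RPKM at Day 15, with a median of 4.05, against 0 to 1.55 RPKM in Control, with a median of 0.238. All 7 Day 15 libraries lay above all 10 Control libraries, with replicate 9 far above the rest. The log2 change was 2.49 (SE 0.52, limma adjusted p = 0.0487) as deposited and 2.34 (SE 0.54, limma adjusted p = 0.0502) after scaling, the second of which missed the threshold. Sirpa, the receptor through which phagocytes read the signal Cd47 on other cells, measured 6.06 to 20.4 RPKM at Day 15, with a median of 10.1, against 0.0224 to 1.93 RPKM in Control, with a median of 0.505. The groups did not overlap, and the Day 15 libraries lay close together. Its log2 change was 2.91 (SE 0.72, limma adjusted p = 0.0850) as deposited and 2.74 (SE 0.62, limma adjusted p = 0.0474) after scaling. Every Day 15 library exceeded every Control library for 3 of 4319 genes as deposited (0.0695%), which were Kcnj2, Sirpa and Abcd2, a peroxisomal transporter of fatty acids. After scaling there were 5 such genes (0.116%), with Irf8, a transcription factor of microglia and macrophages, and Man1c1, a Golgi mannosidase, in addition. Abcd2, Irf8 and Man1c1 were named after their values were seen, and their limma adjusted p-values lay between 0.107 and 0.414 over both scalings.

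Gpr37 is an orphan G protein-coupled receptor of maturing oligodendrocytes, and Camk2n1 an inhibitor of CaM kinase II. Gpr37 measured 0.00201 to 0.511 RPKM at Day 15, with a median of 0.222, against 0.650 to 39.2 RPKM in Control, with a median of 2.76. Every Day 15 library was below every Control library in the values as deposited, and Gpr37 was the only 1 of 4319 genes of which this held (0.0232%). Its log2 change was -2.16 (SE 0.55, limma adjusted p = 0.0850) as deposited and -2.49 (SE 0.54, limma adjusted p = 0.0474) after scaling. Camk2n1 measured 0.00366 to 2.96 RPKM at Day 15, with a median of 0.228, against 1.40 to 16.1 RPKM in Control, with a median of 7.79. Of the 7 Day 15 libraries 6 were below every Control library, and replicate 3 was not. After scaling all 7 were, and Camk2n1 was again the only 1 of 4319 genes (0.0232%). The log2 change was -2.10 (SE 0.54, limma adjusted p = 0.0850) as deposited and -2.49 (SE 0.47, limma adjusted p = 0.0202) after scaling.

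**Figure D1:**
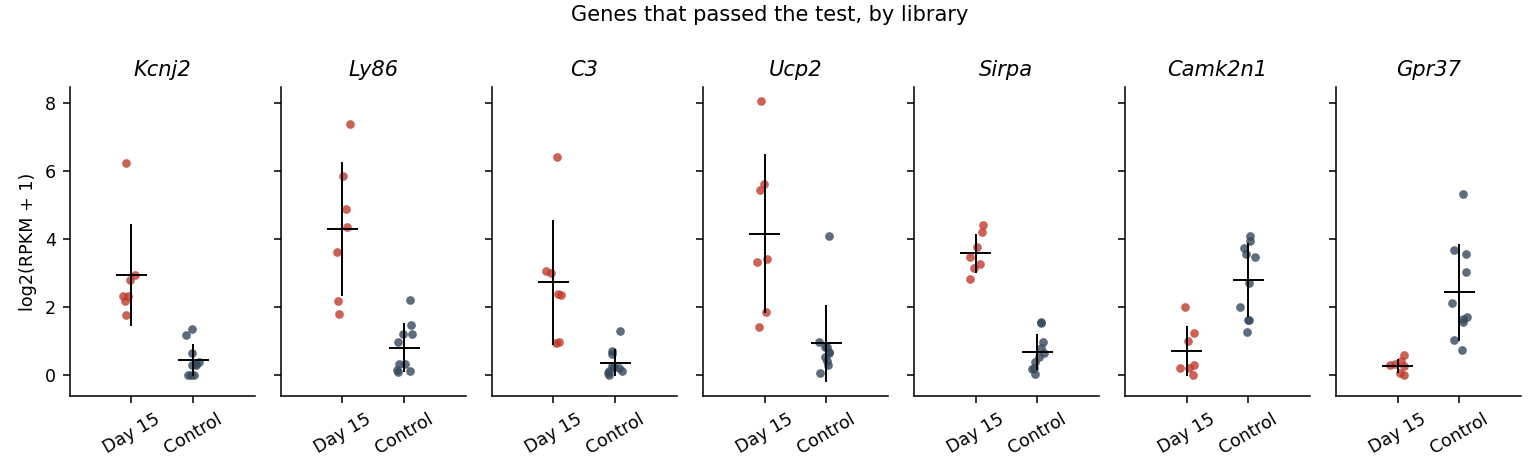
Expression of the 7 genes that passed the test under either scaling, as log2(RPKM + 1) of the deposited values, by library. Points are libraries (7 at Day 15, left, and 10 in Control, right), horizontal bars are means and vertical bars are ± 1 SD. Kcnj2 and Sirpa are higher and Gpr37 lower in all 7 Day 15 libraries than in any Control library, whereas Ucp2 overlaps through 1 Control library.

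Most calls lay close to the threshold and were lost in most fits with a library left out. With each of the 17 libraries left out in turn, the calls as deposited were lost in 14 cases for C3, Ly86 and Ucp2 and in 12 for Kcnj2. C3 kept its call only without Day 15 replicate 5, 6 or 8, Kcnj2 only without Day 15 replicate 3, 5, 6, 7 or 8, Ly86 only without Day 15 replicate 3, 5 or 8, and Ucp2 only without Day 15 replicate 8 or 9 or Control replicate 5. Adjusted p-values in those limma fits ranged from 0.0236 to 0.156. After scaling, Camk2n1 kept its call in all 17 cases (limma adjusted p from 0.00742 to 0.0462). Gpr37 kept it in 5 of 17 cases, Ucp2 in 6, C3 and Ly86 in 4 and Sirpa in 2, with adjusted p-values up to 0.132. The log2 changes themselves kept their sign in every case, between 1.71 and 3.92 for the genes that rose and between -2.74 and -2.09 for the genes that fell.

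The sequences around the transcription starts of the called genes are shown because these genes passed the test. They are 300 bases from 250 before to 50 after the start in RefSeq (mouse build GRCm38.p6), 5′ to 3′ on the gene's strand. Capitals mark the TATA box letters TATAAA, the SOX core ACAAAG and the PU.1 core GAGGAA, each searched on both strands and none overlapping another.
C3, chr17:57228087-57228386, minus strand: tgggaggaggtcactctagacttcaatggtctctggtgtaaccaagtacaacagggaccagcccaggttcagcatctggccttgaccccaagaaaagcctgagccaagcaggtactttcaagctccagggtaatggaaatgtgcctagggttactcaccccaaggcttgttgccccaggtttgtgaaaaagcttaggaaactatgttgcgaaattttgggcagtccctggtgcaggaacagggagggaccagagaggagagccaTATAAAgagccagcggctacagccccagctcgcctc
Ly86, chr13:37345095-37345394, plus strand: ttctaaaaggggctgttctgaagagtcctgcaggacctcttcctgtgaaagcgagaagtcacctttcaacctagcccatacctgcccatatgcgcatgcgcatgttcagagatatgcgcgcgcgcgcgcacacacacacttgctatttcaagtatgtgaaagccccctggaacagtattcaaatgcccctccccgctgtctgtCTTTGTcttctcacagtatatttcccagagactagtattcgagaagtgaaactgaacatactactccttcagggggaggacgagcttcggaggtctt
Ucp2, chr7:100493108-100493407, plus strand: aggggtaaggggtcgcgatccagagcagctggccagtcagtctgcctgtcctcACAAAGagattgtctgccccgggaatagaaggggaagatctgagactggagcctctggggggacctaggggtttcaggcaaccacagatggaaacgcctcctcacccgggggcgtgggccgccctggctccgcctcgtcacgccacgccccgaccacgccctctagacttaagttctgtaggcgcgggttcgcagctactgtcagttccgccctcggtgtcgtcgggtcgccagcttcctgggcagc
Kcnj2, chr11:111065914-111066213, plus strand: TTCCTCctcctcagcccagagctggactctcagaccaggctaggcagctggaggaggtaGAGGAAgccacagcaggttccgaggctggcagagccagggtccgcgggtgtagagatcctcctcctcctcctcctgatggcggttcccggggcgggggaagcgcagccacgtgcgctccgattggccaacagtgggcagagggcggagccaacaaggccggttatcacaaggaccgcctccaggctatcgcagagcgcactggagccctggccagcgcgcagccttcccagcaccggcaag
Gpr37, chr6:25689931-25690230, minus strand: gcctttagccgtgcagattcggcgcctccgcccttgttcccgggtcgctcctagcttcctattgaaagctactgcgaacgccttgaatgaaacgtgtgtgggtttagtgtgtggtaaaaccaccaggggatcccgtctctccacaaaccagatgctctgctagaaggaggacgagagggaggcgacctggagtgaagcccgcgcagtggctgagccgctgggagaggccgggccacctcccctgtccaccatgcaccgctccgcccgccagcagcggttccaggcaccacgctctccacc
C3 held 1 TATAAA, Ly86 and Ucp2 held 1 ACAAAG each (on the reverse strand, as CTTTGT, in Ly86), and Kcnj2 held 2 GAGGAA (1 of them on the reverse strand, as TTCCTC). The TATAAA of C3 began at base 265 of its window, which is after the annotated start. The letters chosen were absent from the Gpr37 window. Among all 32851 promoters of the same length, 13.6% held TATAAA, 18.7% held ACAAAG and 28.3% held GAGGAA on either strand, so such matches are common and describe only these letters. Sirpa and Camk2n1 are named without sequence.

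Myelin and mature oligodendrocyte genes stood lower at Day 15. The deposited values held 55 list members, of which 46 were tested, and 38 of these were below 0 as deposited, with a median log2 change of -0.85, against 0.17 for all genes. After scaling 41 of 46 were below 0 and the median was -1.23, against -0.02 for all genes. In all, 9 members as deposited and 26 after scaling had an unadjusted limma p under 0.05, all of them lower, beside 1.32% and 4.82% of all genes. Over all genes tested, Gpr37 after scaling was the only member that passed. With equal library sums, Rn45s left out, the median was -1.29, and quantile normalization gave -1.22. The median was -0.49 within replicate numbers 1 to 6 and -1.27 within 7 to 10 as deposited, and -1.10 and -1.42 after scaling. In bulk RNA, fewer cells of a type and less RNA per cell cannot be told apart.

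The list's summed RPKM made up 0.983% to 4.44% of the library sum without Rn45s at Day 15, against 4.39% to 7.98% in Control. Of the 7 Day 15 libraries, the 6 at 2.34% or less were below every Control library, and Day 15 replicate 7, at 4.44%, lay just above Control replicates 3 and 9. As absolute sums the groups overlapped more, at 265 to 1109 RPKM at Day 15, with a median of 748, and 317 to 2182 RPKM in Control, with a median of 1313. A share also falls when other transcripts rise.

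**Figure D2:**
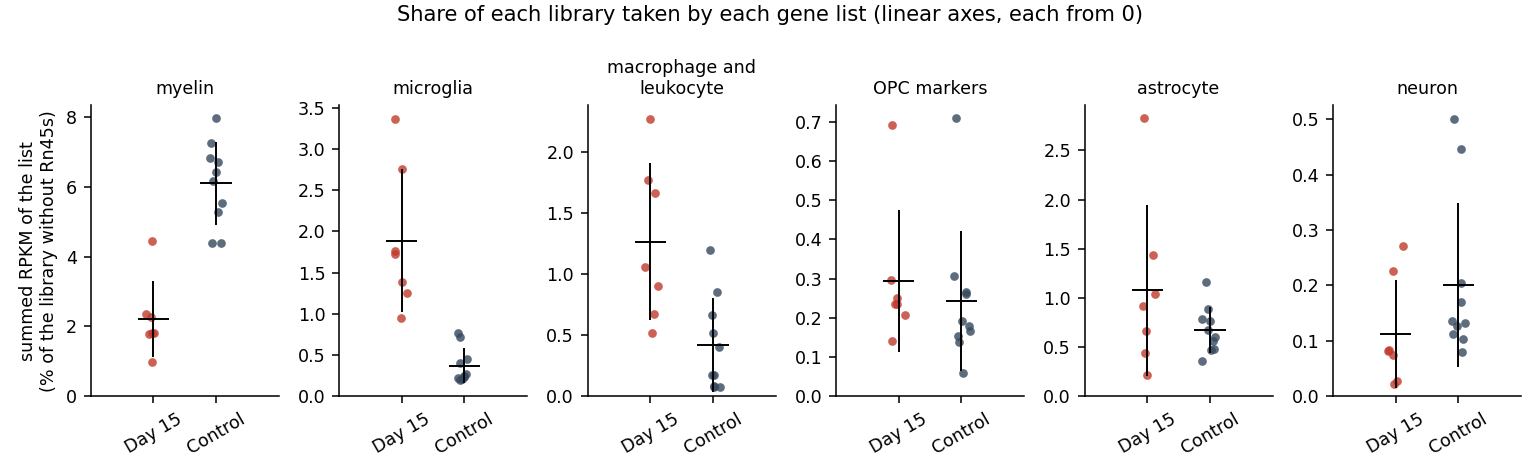
Summed RPKM of 6 gene lists as a percentage of each library's RPKM sum without Rn45s, by library, on linear axes that start at 0. Points are libraries (Day 15 left, Control right), horizontal bars are means and vertical bars are ± 1 SD. The myelin share is below every Control library in 6 of 7 Day 15 libraries, and the microglia share is above every Control library in all 7.

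Among genes of the compact membrane, 8 were tested, with a median change of -1.07 as deposited and -1.45 after scaling, where all 8 were below 0. Mbp measured 18.6 to 439 RPKM at Day 15, with a median of 32.5, against 27.6 to 753 RPKM in Control, with a median of 140. At the low end 3 Day 15 libraries were below every Control library, while replicate 2 was among the high values of both groups. The log2 change of Mbp was -1.39 (SE 0.83, limma adjusted p = 0.644) as deposited and -1.87 (SE 0.72, limma adjusted p = 0.299) after scaling. Mobp, Mal, Gpm6b and Pllp had changes from -1.44 to -0.94 as deposited. Tspan2 and Pmp22, which are also used outside compact central myelin, had 0.31 and 0.32 as deposited and -0.15 and -0.08 after scaling, so their sign turned with the scaling.

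Genes of adhesion, junctions and the cytoskeleton of the sheath gave 17 tested members, 16 of them below 0 under either scaling, with a median of -0.85 as deposited and -1.25 after scaling. Cldn11, the claudin that seals the lamellae of central myelin, measured 0.377 to 9.02 RPKM at Day 15, with a median of 1.51, against 2.25 to 338 RPKM in Control, with a median of 8.07. Below every Control library lay 4 of the 7 Day 15 libraries, and replicate 9 was the highest of the 7. Its change was -2.43 (SE 0.79, limma adjusted p = 0.236) as deposited and -2.74 (SE 0.72, limma adjusted p = 0.107) after scaling. Tubb4a, a tubulin of oligodendrocytes whose reads may be shared with other tubulin genes, measured 1.03 to 70.9 RPKM at Day 15, with a median of 4.52, against 8.72 to 730 RPKM in Control, with a median of 25.9. Again 4 Day 15 libraries were below every Control library, and the other 3 lay among them. Changes as deposited were -2.001 for the paranodal and juxtaparanodal adhesion protein Cntn2, -1.93 for Tubb4a, -1.56 for the junctional adhesion molecule Jam3, -1.38 for the outer-surface glycoprotein Mog, -1.36 for the enzyme Cnp and -0.80 for the glycoprotein Mag, which faces the axon. Plekhb1, at 0.82 as deposited and 0.47 after scaling, was the exception. None passed over all genes, with limma adjusted p-values from 0.189 upward after scaling for Cntn2, Tubb4a, Jam3, Mog, Cnp and Mag.

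Genes of lipid and small-molecule metabolism of the mature oligodendrocyte were more mixed, with 16 of 21 below 0 as deposited and 17 after scaling and medians of -0.75 and -1.03. Aspa, which splits N-acetylaspartate for lipid synthesis, measured 0.0130 to 1.81 RPKM at Day 15, with a median of 0.401, against 0.341 to 18.1 RPKM in Control, with a median of 3.95. Its median at Day 15 was near the lowest Control value, and its change was -1.33 (SE 0.51, limma adjusted p = 0.381) as deposited and -1.44 (SE 0.47, limma adjusted p = 0.188) after scaling. Ugt8a and Fa2h, enzymes of galactolipid synthesis, had -1.04 and -0.84 as deposited. Values above 0 as deposited belonged to Il33, a nuclear alarmin cytokine of oligodendrocytes, at 1.18, Enpp6, a phosphodiesterase known from newly forming oligodendrocytes, at 0.69, Car2, a carbonic anhydrase, at 0.57, Evi2a at 0.23 and the chaperone Cryab at 0.16. After scaling Il33 had 0.86, Enpp6 0.37, Car2 0.15 and Evi2a 0.05, while Cryab turned to -0.29, and none of these 5 passed.

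**Figure D3:**
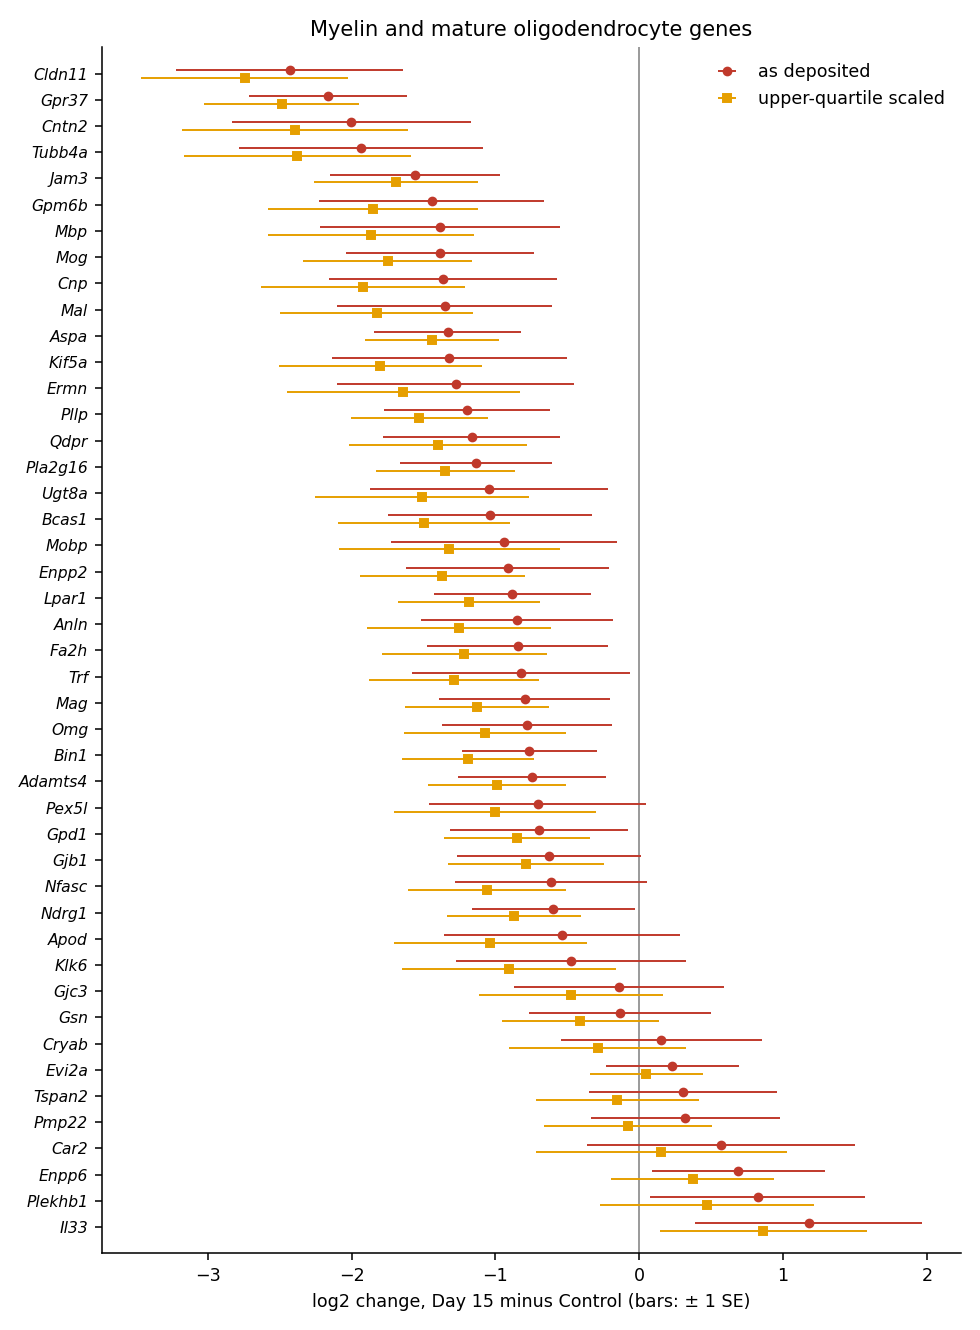
Log2 change at Day 15 minus Control of 45 of the 46 tested myelin and mature oligodendrocyte genes, sorted by the change as deposited, as deposited (circles) and after upper-quartile scaling (squares), with bars of ± 1 SE. The changes run from -2.43 for Cldn11 to 1.18 for Il33 as deposited, and most lie below 0 after scaling.

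Other genes with the smallest p in the lower direction and a mean of at least 5 RPKM were mixed in function, and none passed. Prr18 had a change of -1.80 as deposited and -2.06 after scaling (limma adjusted p = 0.134 and 0.0794). Rapgef4, a cAMP-activated exchange factor for Rap, had -2.30 and -2.71, Ckb, the brain creatine kinase, -1.89 and -2.20, Plekhh1 -1.50 and -1.78, the zinc finger gene Zfp84 -1.31 and -1.50, and Pogk -1.82 and -2.13. Csrp1, a LIM-domain protein of the actin cytoskeleton, and Pacs2, a sorting protein, had -2.32 and -2.09 after scaling. Rapgef4 measured 0.116 to 32.5 RPKM at Day 15 and 0.918 to 610 RPKM in Control, and the highest values lay in Day 15 replicate 2 and Control replicate 7.

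Genes that mark earlier steps of the lineage were then counted in the same way. Of 16 tested OPC markers 4 were below 0 as deposited and 5 after scaling, with medians of 0.51 and 0.24. Under either scaling 2 of the 16 had an unadjusted limma p under 0.05, both higher (12.5%), beside 7.55% of all genes as deposited and 6.11% after scaling. Tnr, an extracellular matrix protein of OPC and perineuronal nets, measured 0.540 to 17.2 RPKM at Day 15, with a median of 1.54, against 0 to 1.72 RPKM in Control, with a median of 0.161. Serpine2, a protease inhibitor, measured 1.85 to 23.0 RPKM at Day 15, with a median of 5.16, against 0.0698 to 3.78 RPKM in Control, with a median of 1.33. Both overlapped between the groups, and their changes of 1.37 and 1.56 as deposited did not pass (limma adjusted p = 0.283 and 0.381), nor did 1.27 and 1.18 after scaling. Pdgfra had a change of -0.03 (SE 0.55) and Cspg4 one of 0.75 (SE 0.53), with -0.20 and 0.52 after scaling. Of the 21 oligodendrocyte transcription factors only 7 could be tested, with a median of -0.05 as deposited and -0.26 after scaling. Of these, 4 were below 0 as deposited and all 7 after scaling, and 1 had an unadjusted p under 0.05 after scaling, in the lower direction. Sox8 had -0.93 and -1.24, Sox6 -0.55 and -0.82, and Olig1 0.29 and -0.01 in that order. Sox10, the factor that drives myelin genes, had -0.05 and -0.26. The 12 tested genes of newly formed oligodendrocytes had medians of 0.24 and -0.02.

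Genes that hold back OPC differentiation had a median of 0.29 as deposited and -0.04 after scaling over 17 tested members, and none passed. At an unadjusted limma p under 0.05 there were 2 higher members and 1 lower as deposited, and 1 higher and 2 lower after scaling. All genes gave 7.55% higher and 1.32% lower as deposited, and 6.11% and 4.82% after scaling. The higher members were TGF-beta receptors, and after scaling only Tgfbr2 was among them. Tgfbr2 measured 0.927 to 57.7 RPKM at Day 15, with a median of 6.82, against 0.0104 to 4.11 RPKM in Control, with a median of 0.398. Above every Control library lay 4 of the 7 Day 15 libraries, and its change was 2.20 (SE 0.64, limma adjusted p = 0.141) as deposited and 2.12 after scaling. Tgfbr1 had 1.41 (SE 0.60, unadjusted limma p = 0.0227, adjusted p = 0.459) as deposited and 1.05 (unadjusted limma p = 0.0568) after scaling, and both receptors are also expressed by microglia. Notch1, a receptor that keeps OPC immature, had -1.41 as deposited and -1.69 after scaling (limma adjusted p = 0.459 and 0.180). In the Nogo receptor pathway 7 members were tested, with a median of 0.28 as deposited and -0.05 after scaling. Rtn4r was listed at 0 in most libraries of both groups and, like Inhba, was not tested.

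Microglia genes stood higher at Day 15. All 31 tested members of 34 in the table had a change above 0 under both scalings, with a median of 1.65 as deposited and 1.45 after scaling. Of these, 20 as deposited and 18 after scaling had an unadjusted limma p under 0.05, beside 7.55% and 6.11% of all genes, and Ly86 was the only member that passed. The median was 1.94 within replicate numbers 1 to 6 and 0.92 within 7 to 10 as deposited, and 1.37 and 1.17 after scaling. The summed RPKM of the list was 111 to 1720 at Day 15, with a median of 595, against 25.7 to 152 in Control, with a median of 50.6. As a share of the library without Rn45s it was 0.948% to 3.37% at Day 15 and 0.200% to 0.765% in Control, without overlap. No member was at 0 in all libraries of both groups, which any single value above 0 would meet, and Slc2a5 stayed under 1 RPKM in all of them. By their summed RPKM, microglia transcripts were present in libraries labelled as OPC, and their part in the results was not tested.

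Among microglial identity genes, 13 were tested with a median of 1.44 as deposited and 1.12 after scaling. Siglech, a lectin of microglia, measured 0.0772 to 13.5 RPKM at Day 15, with a median of 2.37, against 0 to 0.758 RPKM in Control, with a median of 0.0419. The 5 highest Day 15 libraries lay above every Control library, and the change was 1.65 (SE 0.41, limma adjusted p = 0.0850) as deposited and 1.57 (SE 0.39, limma adjusted p = 0.0908) after scaling. Csf1r, the receptor on which microglia depend for survival, averaged 46.4 RPKM at Day 15 and 3.20 RPKM in Control, and its log2 change was 2.48 (SE 0.72, limma adjusted p = 0.141) as deposited and 2.06 after scaling. P2ry12, the purine receptor of resting microglia, had 0.72, and Aif1 had 0.18 (limma adjusted p = 0.684 and 0.931). Activation, signalling and general myeloid genes, 18 tested, had a median of 1.70 as deposited and 1.46 after scaling. Trem2, a lipid-sensing receptor, and Tyrobp, its signalling partner, had 1.72 and 1.89 as deposited and 1.45 and 1.71 after scaling.

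Macrophage and leukocyte genes had 22 of 25 tested members above 0 under both scalings, a median of 1.16 as deposited and 0.93 after scaling, and 11 members at an unadjusted p under 0.05 under each, all higher (44%), beside 7.55% and 6.11% of all genes. None passed. Lyz2, the lysozyme of macrophages, measured 6.25 to 311 RPKM at Day 15, with a median of 32.2, against 0.219 to 25.9 RPKM in Control, with a median of 4.56. Here 5 of the 7 Day 15 libraries exceeded every Control library, and the log2 change was 3.31 (SE 0.87, limma adjusted p = 0.0897) as deposited and 3.02 after scaling. Its reads may be shared with Lyz1. Ptprc, the leukocyte antigen CD45, measured 4.28 to 64.5 RPKM at Day 15, with a median of 13.4, against 0.113 to 6.93 RPKM in Control, with a median of 1.23. The 2 lowest Day 15 libraries reached into the Control range, and the change was 2.43 (SE 0.63, limma adjusted p = 0.0850) as deposited and 2.19 after scaling. Itgax, an integrin of activated microglia and dendritic cells, had 1.33 (limma adjusted p = 0.137). The neutrophil genes S100a8 and S100a9, the B cell genes Cd79a and Ms4a1 and the T cell gene Cd2 stayed under 1 RPKM in all libraries of both groups. Cd33, an inhibitory receptor of myeloid cells, was among the genes with the smallest p, with a change of 2.38 as deposited (limma adjusted p = 0.0850).

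Genes of the phagocyte's machinery stood higher to a lesser extent. The 37 tested lysosome genes had medians of 0.83 as deposited and 0.54 after scaling, with 6 and 9 members below 0. At an unadjusted p under 0.05 there were 9 members as deposited and 8 after scaling, all higher (24.3% and 21.6%), beside 7.55% and 6.11% of all genes. Cathepsins and other hydrolases had medians of 1.04 and 0.80, and membrane proteins, cofactors and proton pump subunits 0.45 and 0.32. Ctsd, the lysosomal aspartic protease, measured 31.2 to 4876 RPKM at Day 15, with a median of 110, against 2.96 to 56.5 RPKM in Control, with a median of 20.3. Day 15 replicate 5 held the highest value, the Day 15 mean without it was 170 RPKM, and the change was 3.37 (SE 0.86, limma adjusted p = 0.0850) as deposited and 2.92 after scaling. Ppt1, which removes fatty acids from proteins, had 2.97 (limma adjusted p = 0.134). Of 12 lipid efflux and storage genes 11 were above 0, with a median of 0.96 as deposited and 0.68 after scaling. Plin2, the coat protein of lipid droplets, measured 0.0530 to 59.0 RPKM at Day 15, with a median of 35.2, against 0.000903 to 1.50 RPKM in Control, with a median of 0.188. The Day 15 libraries split, with 4 far above every Control library and 3 inside the Control range. Its change was 2.97 (SE 0.79, limma adjusted p = 0.0974), and Apoe, the lipid carrier, had 2.61 (SE 0.75, limma adjusted p = 0.137), with 2.88 and 2.20 after scaling.

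The complement list had a median of 1.25 as deposited and 1.20 after scaling over 15 tested genes, 8 of them at an unadjusted p under 0.05 under each scaling, all higher (53.3%), beside 7.55% and 6.11% of all genes. C3 was its called member. Components and receptors had medians of 1.45 and 1.36 as deposited, and inhibitors, of which 3 were tested, 0.71. C1qb, a chain of the recognition molecule of the classical pathway, measured 5.02 to 107 RPKM at Day 15, with a median of 18.1, against 0.111 to 20.3 RPKM in Control, with a median of 2.91. The groups overlapped in 5 Day 15 libraries, and the change was 2.28 (SE 0.73, limma adjusted p = 0.225) as deposited and 2.01 after scaling. Toll-like receptor and inflammasome genes had medians of 0.95 and 0.73 over 17 tested members, with Ly86 called and its binding partner Cd180 at 2.47 (SE 0.70, limma adjusted p = 0.134) as deposited and 2.16 after scaling. The inflammatory cytokines Il1a, Il1b and Il18 and the sensor Nlrp3 stayed under 1 RPKM in all Day 15 and Control libraries. The chemokine Ccl3 measured 0.0161 to 10.8 RPKM at Day 15 and 0 to 1.15 RPKM in Control. Its change was 1.44 (SE 0.46, limma adjusted p = 0.202) as deposited and 1.43 after scaling. Interferon and antigen presentation genes had a median of 0.15 as deposited and -0.03 after scaling over 22 members, beside 0.17 and -0.02 for all genes. B2m, the light chain of MHC class I, had 2.84 (limma adjusted p = 0.134).

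**Figure D4:**
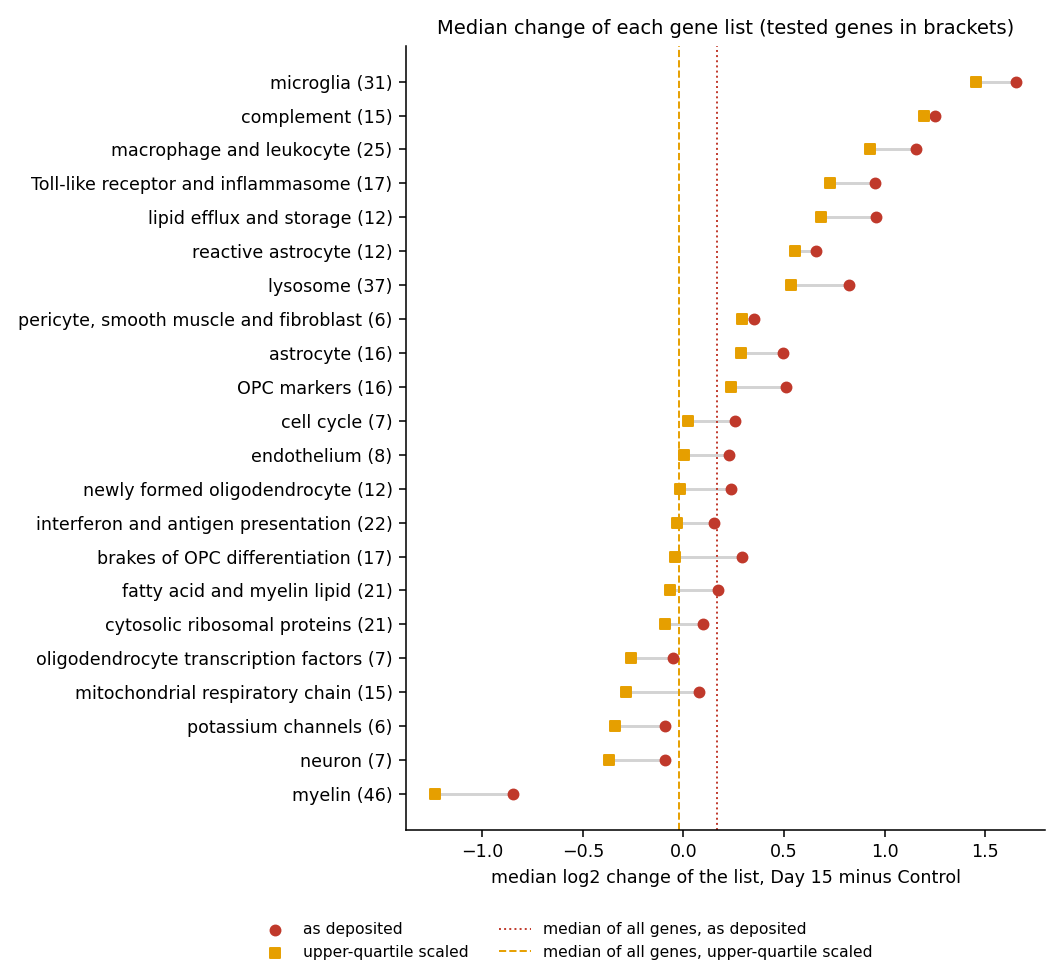
Median log2 change at Day 15 minus Control of each gene list with at least 5 tested genes, as deposited (circles) and after upper-quartile scaling (squares), with the medians of all 4319 genes as vertical lines at 0.17 and -0.02. The microglia list lies highest, at 1.65 and 1.45, and the myelin list lowest, at -0.85 and -1.23.

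Lipid synthesis genes did not share one direction. The 21 tested fatty acid and myelin lipid genes had medians of 0.17 as deposited and -0.07 after scaling, with 1 member higher and 0 lower at an unadjusted limma p under 0.05 as deposited. After scaling there were 0 higher and 6 lower (28.6%), beside 4.82% of all genes lower. Scd2, a fatty acid desaturase of oligodendrocytes, measured 4.98 to 36.0 RPKM at Day 15, with a median of 22.5, against 6.08 to 427 RPKM in Control, with a median of 55.5. Only 1 Day 15 library was below every Control library, and the change was -1.44 (SE 0.78, limma adjusted p = 0.610) as deposited and -1.90 after scaling. Srebf1, a transcription factor of lipid synthesis, had 1.57 (SE 0.65, limma adjusted p = 0.446) as deposited and 1.15 after scaling. Day 15 replicates 3 and 5 held 113 and 43.5 RPKM of it. The other Day 15 libraries lay within the Control range of 0.0314 to 1.82 RPKM. Of the cholesterol synthesis genes only 4 were tested. Sqle, the squalene epoxidase, averaged 0.186 RPKM at Day 15 and 3.03 RPKM in Control, with a change of -1.16 as deposited and -1.35 after scaling (limma adjusted p = 0.302 and 0.107).

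Markers of other cells in the captured tissue were given the same counts, and their part in the results was not tested. Astrocyte genes had medians of 0.49 as deposited and 0.29 after scaling over 16 members, with summed RPKM of 51.6 to 999.6 at Day 15 and 25.8 to 395 in Control. Aqp4, the water channel of astrocyte endfeet, measured 3.83 to 44.2 RPKM at Day 15, with a median of 24.8, against 0.885 to 7.72 RPKM in Control, with a median of 1.93, and 5 of the 7 Day 15 libraries exceeded every Control library. Its change was 2.23 (SE 0.63, limma adjusted p = 0.134) as deposited and 1.84 after scaling. Gfap, the astrocyte filament protein, had 1.21 (SE 0.91, limma adjusted p = 0.743) as deposited and 0.81 after scaling, and reactive astrocyte genes had medians of 0.66 and 0.56 over 12 members. Neuron genes had medians of -0.09 and -0.37 over 7 tested members, with summed RPKM of 8.77 to 107 at Day 15 and 11.2 to 70.0 in Control. Meg3, a noncoding RNA of neurons, had -1.31 as deposited.

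Markers of vessels varied in level. The endothelial list had medians of 0.23 and 0.00 over 8 members. Cldn5, the endothelial claudin, was at most 0.111 RPKM at Day 15 and 0.115 RPKM in Control, while Cd34, a sialomucin of endothelium and other cells, reached 34.2 RPKM at Day 15 and 1.90 RPKM in Control. The pericyte, smooth muscle and fibroblast list had medians of 0.35 and 0.29 over 6 tested members, of 18 in the table. Over all genes, 7.55% as deposited and 6.11% after scaling had an unadjusted limma p under 0.05 in the higher direction. In the list there were 2 (33.3%) and 3 (50%), all of them higher. Among them, Col3a1, a fibrillar collagen, measured 0.0418 to 14.8 RPKM at Day 15, with a median of 1.26, against 0 to 0.266 RPKM in Control, with a median of 0.00627. In 5 of the 7 Day 15 libraries it exceeded every Control library. Its change was 1.58 (SE 0.40, limma adjusted p = 0.0850) as deposited and 1.40 (SE 0.33, limma adjusted p = 0.0502) after scaling. Fn1, fibronectin, had 1.74 (limma adjusted p = 0.390). Igfbp5, an insulin-like growth factor binding protein, measured 3.76 to 329 RPKM at Day 15, with a median of 26.2, against 0.136 to 41.9 RPKM in Control, with a median of 2.52. The groups overlapped, with 2 Day 15 libraries far above the rest, and the change was 3.25 (SE 0.83, limma adjusted p = 0.0850) as deposited and 2.95 after scaling. Red blood cell genes summed to at most 0.220 RPKM at Day 15 and 0.229 RPKM in Control, and Hba-a1 and Hba-a2 were listed at 0 throughout.

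Lists of general cell functions lay near the median of all genes. Medians as deposited were 0.10 for 21 cytosolic ribosomal protein genes, 0.08 for 15 genes of the mitochondrial respiratory chain list, which holds Ucp2, and 0.26 for 7 cell cycle genes. After scaling they were -0.09, -0.29 and 0.02 in that order. Among 6 tested potassium channel genes Kcnj2 was the only one called, and the axonal channel Kcna1 had -0.92 as deposited. Further genes among the smallest p in the higher direction were Tmod3, which caps actin filaments, at 2.13 as deposited and 1.98 after scaling (limma adjusted p = 0.0850 and 0.0952), and Ivns1abp at 2.86 and 2.58 (limma adjusted p = 0.0850 and 0.107).

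Day 15 and Day 5 were each set against the same 10 Control libraries, so their changes share an error, and the difference was tested directly. No gene passed in the contrast Day 15 minus Day 5 under either scaling, with smallest limma adjusted p-values of 0.183 as deposited and 0.467 after scaling. At an unadjusted p under 0.05 there were 34 genes higher and 599 lower at Day 15 as deposited, and 105 higher and 211 lower after scaling. C3 had a change of 2.37 at Day 15 and 0.66 at Day 5, and the direct contrast gave 1.71 (SE 0.55, unadjusted limma p = 0.00326, adjusted p = 0.218). Kcnj2 had 2.49 at Day 15 and 0.75 at Day 5, with a contrast of 1.74 (SE 0.55, limma adjusted p = 0.203). Camk2n1 had -2.10 at Day 15 and -1.92 at Day 5, with a contrast of -0.18 (SE 0.57), and Sirpa 2.91 and 2.92, with a contrast of -0.02 (SE 0.76). The macrophage gene Lyz2 had 3.31 at Day 15 and 5.40 at Day 5, with a contrast of -2.09 (SE 0.91, limma adjusted p = 0.275). After scaling the direct contrast was 1.99 for C3, 1.93 for Kcnj2, -0.01 for Camk2n1, 0.50 for Sirpa and -1.51 for Lyz2. The median of the myelin list was -0.85 at Day 15 and -0.08 at Day 5 as deposited, and -1.23 at Day 15 and -0.88 at Day 5 after scaling. In the direct contrast the list's median was -0.76 as deposited and -0.38 after scaling. In either direction 9 and 3 of its 46 members had an unadjusted limma p under 0.05, beside 633 and 316 of all 4319 genes.

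In the values as deposited, the contrast with Day 5 changed when Day 15 replicate 5 was left out. Without it 8 genes passed as deposited, all lower at Day 15: Cd68, F13a1, Il7r, Lgals3, Ms4a7, Msr1, Spp1 and Tnfaip8, named after their values were seen. The library left out held the highest Day 15 value of all 8, which choosing genes in this way favours. Counts of this contrast without each other library are not given. With all libraries kept, their limma adjusted p-values as deposited were 0.183 to 0.535. After scaling 0 genes passed without that library, with 115 higher and 250 lower at an unadjusted limma p under 0.05. The same 8 were lower there too, with limma adjusted p-values from 0.0719 to 0.211. F13a1, a transglutaminase of macrophages, measured 103.8 RPKM in that library and at most 0.405 RPKM in the other 6 Day 15 libraries, against 0.695 to 6.80 RPKM at Day 5. Spp1, osteopontin, measured 153 RPKM in that library and at most 5.71 RPKM in the others, against 3.46 to 1818 RPKM at Day 5. Msr1, a scavenger receptor, and Lgals3, a galectin of phagocytes, measured 14.4 and 7.50 RPKM there and at most 1.21 and 1.60 RPKM in the other 6.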

How the data were processed

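The authors deposited one table of RPKM values with 25 columns, 1 for each library, and 0 columns were left unused. Paired ends were read from cDNA amplified with a Nugen Ovation kit, per the labels' protocols. The submitters' processing notes list mouse build mm9 and the tools HTSeq, STAR 2.1.4a and CASAVA 1.8.3. The computation of RPKM and the use of strand are not stated there, so overlapping and paralogous genes are uncertain. The deposited RPKM values gave no whole-read steps (6.5% to 14.5% of the 200 lowest values per library were whole multiples, tolerance 0.05), so read depth could not be recovered and counting error is not given. Genes had to reach 1 RPKM in 7 or more libraries, and limma 3.58.1 (R 4.3.3, trend and robust, two-sided, Benjamini-Hochberg over all 4319 genes, threshold 0.05) was fitted to all 3 groups on log2(RPKM + 1), as deposited and after upper-quartile scaling. It was tested on simulated data. Exact tests used scipy 1.17.1.

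The members and the 25 gene lists were chosen with earlier results of these data known, so lists are given as counts and medians without a test. Named genes are all called genes, the 10 smallest p in each direction with a mean of at least 5 RPKM, members of the lists by smallest p, every tested myelin gene and a marker panel. Any other gene in the text was picked after its values had been seen. The 25 gene names that were dates were not named. Some genes that fall under these rules are left out of the text and figures, and counts over lists include them.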

Additional observations from a re-analysis of the deposited data

Results flagged for a closer look

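Among 252 groups of values checked (126 named genes in the Day 15 and the Control libraries), 46 held a library whose gap to its nearest neighbour on the log2(RPKM + 1) scale was large against the range of the group. Chance alone flags about 1 in 20 groups if values are normally spread, and the rate for these libraries was not measured. The values below are given without explanation.

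Day 15 replicate 2 stood apart for C3 at 84.4 RPKM, Rapgef4 at 32.5 RPKM and Ndrg2 at 86.7 RPKM. Day 15 replicate 3 was set off from the other libraries of its group by Tgfbr1 at 33.7 RPKM, Psmb9 at 1.36 RPKM, Ndufa10 at 17.7 RPKM, Cntn2 at 37.5 RPKM and Ugt8a at 263 RPKM. Day 15 replicate 5 was separate for Pex5l at 99.2 RPKM, Gpd1 at 5.18 RPKM, Pdgfra at 6.52 RPKM, Cspg4 at 25 RPKM, Cldn5 at 0.111 RPKM and Rtn4r at 2.02 RPKM. Day 15 replicate 6 stood apart for Ivns1abp at 331 RPKM, Snap25 at 56 RPKM and Mki67 at 152 RPKM. Day 15 replicate 7 was set off from the other libraries of its group by Mobp at 88 RPKM, Olig2 at 0.748 RPKM and Inhba at 0.0438 RPKM. Day 15 replicate 9 was separate for Kcnj2 at 74.3 RPKM.

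Control replicate 1 stood apart for Ivns1abp at 58.6 RPKM, Ccl3 at 1.15 RPKM, Kcna6 at 295 RPKM and Tubb4a at 730 RPKM. Control replicate 2 was set off from the other libraries of its group by Tmod3 at 3.01 RPKM, Col4a2 at 2.07 RPKM, Sox10 at 94.7 RPKM, Aif1 at 3.35 RPKM and Rtn4r at 0.0544 RPKM. Control replicate 4 was separate for Cnp at 282 RPKM, Qdpr at 31.6 RPKM and Cldn5 at 0.115 RPKM. Control replicate 5 stood apart for Ucp2 at 16 RPKM, Olig1 at 7.32 RPKM, Psmb9 at 66.1 RPKM, Olfm1 at 22.5 RPKM, Omg at 26.8 RPKM, Gfap at 335 RPKM and Inhba at 2.06 RPKM. Control replicate 7 was set off from the other libraries of its group by Rapgef4 at 610 RPKM, Mpzl1 at 30 RPKM, Siglech at 0.758 RPKM, Acsbg1 at 2.7 RPKM and Anln at 68.2 RPKM. Control replicate 8 was separate for Cspg4 at 9.78 RPKM.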

How the results depend on the processing

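As deposited, 4 genes were called. The count was 38 with a pseudocount of 0.1, 29 with library weights, 11 with a mean RPKM of at least 5, 2 with Day 15 and Control fitted alone, 1 with detected genes as a covariate, 1 without Control replicates 4 and 5 (chosen after seeing the data) and 1 at the same sum without Rn45s. It was 0 without a filter, by rank-sum test, within replicate numbers 1 to 6 and within 7 to 10. After upper-quartile scaling 6 were called, against 50, 1 and 14 in the first 3 of these settings, 1 in the fit of Day 15 and Control alone, and, added after seeing the data, 1 without a filter and 0 in either number range. With each library left out in turn the count was 0 to 6 as deposited and 1 to 14 after scaling. Deviations from the group means had correlations of -0.013 to 0.084 between same-numbered Day 15 and Control libraries. Of the 7, 1 matched its own number best. The values themselves correlated at most at 0.425 between any 2 libraries, so this check cannot decide whether the numbers pair them. With a replicate block 4 genes were called as deposited and 3 after scaling. The cause of these shifts was not tested.

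The myelin median stayed below 0 in every setting run, from -1.03 to -0.69 with a library left out (-1.33 to -1.115 after scaling), and was -1.79 scaled with a pseudocount of 0.1. The microglia median stayed above 0. It was 2.55 with that pseudocount and 0.92 within numbers 7 to 10, and scaled it was 2.13 and 1.17 in those settings, 1.84 at a mean RPKM of at least 5, 2.06 with the quartile over all genes (added later) and 1.11 to 1.497 with a library left out.

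Of 3846 values compared, 3634 kept direction and side of the threshold, 83 lost and 53 gained a call or moved, and 76 turned sign, all for genes that were not called. Within numbers 7 to 10 the log2 changes were 0.27 for Sox6, -0.15 for Cspg5, -0.28 for Srebf1, 0.22 for Meg3, 0.17 for Slc2a1, -0.22 for Vwf, -0.15 for Mki67, -1.04 for Pcna, 0.063 for Ndufb9, -0.059 for Tspan2, -0.58 for Cryab, 0.26 for Gsn, -0.54 for Evi2a, -0.35 for Cspg4 and 0.11 for Sox10. Within 1 to 6 they were 0.66 for Snap25, 0.30 for Gjc3, 0.30 for Kif5a, 0.095 for Bin1, 0.073 for Apod and 0.21 for Pdgfra. Upper-quartile scaling gave -0.013 for Olig1, -0.15 for Tspan2, -0.079 for Pmp22 and -0.29 for Cryab. The same sum gave -0.067 for Olig1, -0.051 for Pcna, -0.28 for Tspan2, -0.10 for Pmp22, -0.0057 for Car2, -0.36 for Cryab and -0.024 for Evi2a. Quantile normalization gave -0.057 for Pcna, -0.15 for Tspan2, -0.048 for Car2 and -0.24 for Cryab. Library weights gave -0.079 for Pcna, -0.18 for Cryab, 0.050 for Gsn, 0.0070 for Pdgfra and 0.037 for Sox10. A pseudocount of 0.1 gave -0.091 for Cryab and 0.093 for Sox10, and the detected-gene covariate -0.24 for Cryab. Without Control replicates 4 and 5, Gjc3 had 0.14 and Pdgfra 0.11. With a library left out the ranges were -0.033 to 1.18 for Car2, -0.57 to 0.50 for Cryab, -0.013 to 0.38 for Evi2a, -0.50 to 0.20 for Gjc3, -0.67 to 0.087 for Gsn, -0.91 to 0.077 for Kcna6, -0.25 to 0.96 for Mki67, -0.017 to 0.54 for Olig1, -0.37 to 0.11 for Pdgfra, -0.16 to 0.55 for Pmp22, -0.90 to 0.059 for Snap25, -0.30 to 0.46 for Sox10 and -0.0067 to 0.61 for Tspan2.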
